A study of Drosophila melanogaster with 12 samples.

Results

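The 10 heat shock protein and cytosolic chaperone genes followed here, by name, in the fat body transcriptome of Drosophila melanogaster larvae were Hsp83, Hsp22, Hsp23, Hsp26, Hsp27, Hsp67Ba, Hsp67Bc, Hsp68, Hsc70-4 and DnaJ-1. Of these 10 genes, 9 were found among the 9527 rows of the deposited table, and all 9 were among the 9367 genes that could be tested. Hsp22 was not analysed here. Their rows were taken by gene symbol.

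The study asked how a high-sugar diet and RNAi aimed at svp (seven-up, an orphan nuclear receptor gene) change the RNA of the larval fat body, the organ of fat storage and secretion. The 12 libraries came from female larvae of the third instar at the wandering stage and formed 4 groups of 3. Every group carried UAS-Dcr2 on the X chromosome and the r4-GAL4 driver, which is active in the fat body, so the Dicer-2 transgene was shared by controls and RNAi animals. Larvae of the control genotype had the VDRC stock 60100 as their other parent, and larvae labelled svp RNAi had the VDRC stock 100762, which holds the UAS hairpin. Each genotype was reared on a control diet with 0.15 M sucrose or on a high-sugar diet with 0.7 M sucrose. The RNAi rests on 1 hairpin line. Whether replicate libraries were made from different pools of larvae is not given in the labels, so a p-value here measures the spread between libraries, which may be technical.

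Chaperones bind proteins that are unfolded or being folded and keep them from clumping. Small heat shock proteins (Hsp23, Hsp26, Hsp27, Hsp67Ba and Hsp67Bc) hold unfolded proteins without using ATP. The HSP70 class (Hsc70-4 and Hsp68) folds them in ATP-driven cycles that J-domain proteins such as DnaJ-1 start, and the HSP90 protein Hsp83 matures signalling proteins, steroid receptor complexes among them. Heat shock factor switches on most of these genes under heat. In flies the small heat shock genes at cytological position 67B are also known to be transcribed without heat, under ecdysone, near the end of larval life. In the BDGP6 annotation Hsp23 (FBgn0001224), Hsp26 (FBgn0001225), Hsp27 (FBgn0001226), Hsp67Ba (FBgn0001227) and Hsp67Bc (FBgn0001229) lie on chromosome arm 3L within 1 cluster. Hsp83 (FBgn0001233) and DnaJ-1 (FBgn0263106) lie elsewhere on 3L, and Hsp68 (FBgn0001230) and Hsc70-4 (FBgn0266599) on 3R.

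Values are normalised reads: the deposited read-like values put on 1 scale over the 12 libraries, not divided by gene length unless stated. A call is an adjusted p under 0.05 in limma, with Benjamini-Hochberg adjustment over the 9367 genes. Summed over these 9367 genes, the reads recovered from the deposited values numbered 4381822 to 6556035 in a library. Nuclear ribosomal RNA took 0.528% to 4.62% of them, with the highest share and the fewest reads in control-diet control replicate 3. Mitochondrial transcripts took 0.407% to 5.71%. The RNAi target went against its label: svp was at 473 ± 79.0 normalised reads in the control-diet controls and at 1604 ± 180 in the control-diet svp RNAi-labelled libraries (SD, n = 3), a log2 fold change of 1.77 ± 0.16 (limma SE, adjusted p = 7.2e-06). The high-sugar log2 fold change of svp was 1.46 ± 0.16 (limma SE, adjusted p = 2.4e-05). Reads from the hairpin and from the gene cannot be told apart, and every genotype difference given here is that of the svp RNAi-labelled libraries against control. Fat body markers were present in all libraries, led by the storage protein gene Lsp2.

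Hsp23 was the most abundant member per kb of exon in all 4 groups, and it was higher in the svp RNAi-labelled libraries on both diets. In the control-diet controls it had 10003, 13341 and 9159 normalised reads in replicates 1, 2 and 3. In the control-diet svp RNAi-labelled libraries it had 27046, 28897 and 25329. The lowest of these lay well above the highest control, so the groups did not overlap. In the high-sugar controls there were 5052, 12478 and 6400 normalised reads of Hsp23. The high-sugar svp RNAi-labelled libraries had 18122, 27802 and 21616. Again the groups did not overlap, although high-sugar control replicate 2 stood at about the level of the control-diet controls.

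**Figure D1:**
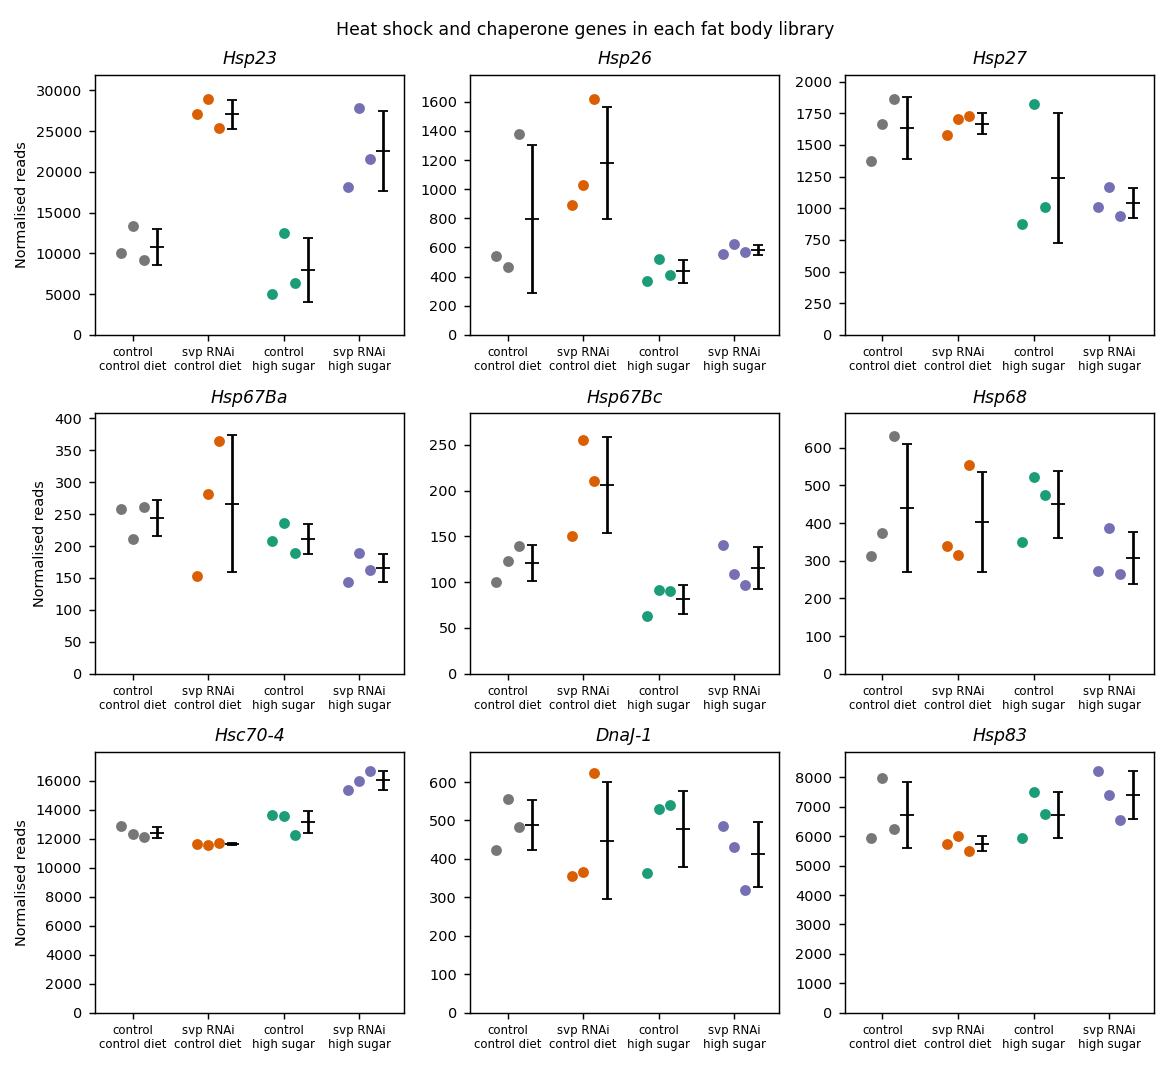
Normalised reads (linear y axis, from 0, with its own scale in each panel) of the 9 measured members in the 12 libraries. Points are libraries in the order of their replicate numbers, coloured by group, and the bar beside them is the group mean ± 1 SD (n = 3). Hsp23 sits between 5052 and 13341 in the control libraries and between 18122 and 28897 in those labelled svp RNAi, while Hsc70-4 is highest in the high-sugar svp RNAi-labelled libraries.

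The group means of Hsp23 were 10834 ± 2211 in control and 27091 ± 1784 in the svp RNAi-labelled libraries on the control diet (SD, n = 3). This was a log2 fold change of 1.34 ± 0.28 (limma SE, adjusted p = 0.0065), or 2.53-fold on the log2(value + 1) scale. On high sugar the means were 7977 ± 3957 and 22513 ± 4902 (SD, n = 3), a log2 fold change of 1.58 ± 0.28 (limma SE, adjusted p = 0.0014), or 3-fold. Both calls were kept in all 22 alternatives. Among the 9367 genes Hsp23 ranked 103rd by log2 fold change on the control diet and 96th on high sugar. A difference of this gain between the diets was not called: the interaction was 0.25 ± 0.40 on the log2 scale (limma SE, adjusted p = 0.84), with a 95% interval from -0.60 to 1.09. The diet contrasts of Hsp23 were -0.53 in control (limma, adjusted p = 0.38) and -0.29 in the svp RNAi-labelled libraries (limma, adjusted p = 0.55). In control this value was -0.91 without high-sugar control replicate 2 (limma, adjusted p = 0.06) and -0.26 without replicate 1 (limma, adjusted p = 0.69). In the svp RNAi-labelled libraries it was -0.14 without high-sugar svp RNAi replicate 1 (limma, adjusted p = 0.84) and -0.45 without replicate 2 (limma, adjusted p = 0.41).

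Hsp27, the neighbour of Hsp23, was called in neither genotype contrast. It had 1376, 1669 and 1864 normalised reads in the control-diet controls. The control-diet svp RNAi-labelled libraries had 1576, 1702 and 1727, within the range of those controls. The log2 fold change of Hsp27 was 0.04 on the control diet, with a 95% interval from -0.42 to 0.49, and -0.18 on high sugar, with an interval from -0.64 to 0.28 (limma, adjusted p = 0.95 and 0.64). The 2 intervals do not reach the fold changes of Hsp23. Without high-sugar control replicate 2 the high-sugar value of Hsp27 turned to 0.14 (limma, adjusted p = 0.64).

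The number of Hsp23 reads for each Hsp27 read makes the difference between these neighbours visible in every library. It was 7.27, 7.99 and 4.91 in the control-diet controls, and 17.2, 17.0 and 14.7 in the control-diet svp RNAi-labelled libraries. On high sugar it was 5.76, 6.84 and 6.35 in control, and 18.0, 23.8 and 23 in the svp RNAi-labelled libraries. The lowest value of either group labelled svp RNAi was above the highest of any control library. This ratio is within a library and does not depend on the joint rescaling of libraries. It is not per length, however, and shows unequal change only. The ratio of Hsp23 to Hsp26 was less clear on the control diet. It ran from 6.64 to 28.6 in control and from 15.6 to 30.4 in the svp RNAi-labelled libraries, which overlap. On high sugar it ran from 13.6 to 23.8 and from 32.6 to 44.6, which do not overlap.

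**Figure D2:**
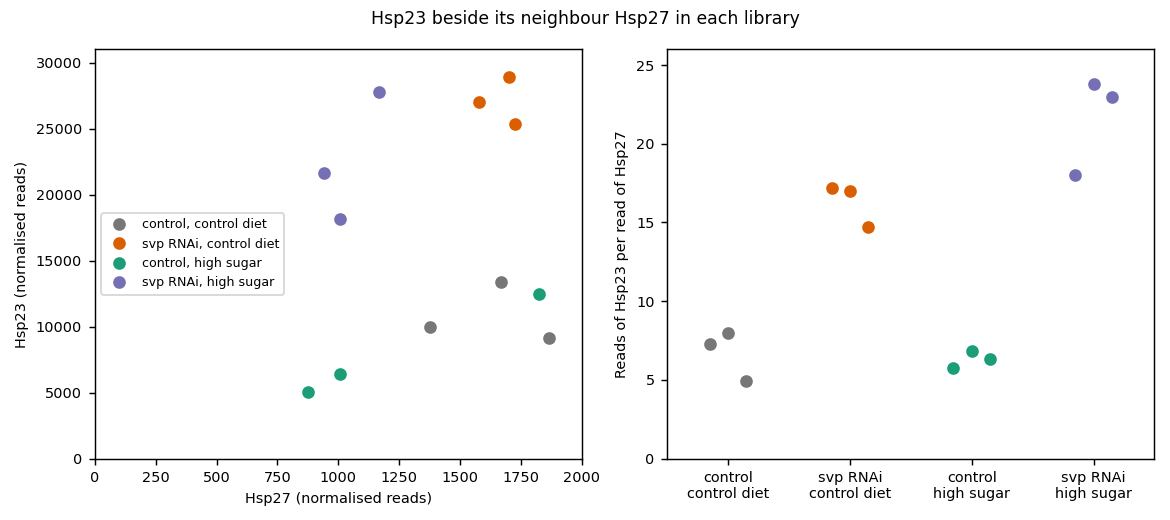
Left, Hsp23 against Hsp27 in normalised reads (both axes linear), 1 point a library, coloured by group. Right, the number of Hsp23 reads for each Hsp27 read in each library by group (y axis linear, from 0). The ratio lies between 4.91 and 7.99 in the 6 control libraries and between 14.7 and 23.8 in the 6 labelled svp RNAi.

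For diet, no contrast of Hsp27 was called, though its values on high sugar were mostly the lower. The high-sugar controls had 877, 1824 and 1008 normalised reads, and the high-sugar svp RNAi-labelled libraries had 1007, 1169 and 939. In the svp RNAi-labelled libraries the 2 diets did not overlap, and the log2 fold change was -0.69 ± 0.21 (limma SE, adjusted p = 0.060). In control the groups overlapped through high-sugar control replicate 2, and the value was -0.47 ± 0.21 (limma SE, adjusted p = 0.31). Without that library the value in control was -0.79 and was called (limma, adjusted p = 0.015). Without high-sugar control replicate 1 or 3 it was -0.26 or -0.36 (limma, adjusted p = 0.59 and 0.60). The contrast in the svp RNAi-labelled libraries was called as well without high-sugar control replicate 2 (limma, adjusted p = 0.0088). That library is in neither of its groups, so its value stayed at -0.69 and only the error shared by the groups changed. It was also called without high-sugar control replicate 1, in the fit of its 2 groups alone and with replicate number as a block.

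Hsp67Bc, a small heat shock protein that partners the co-chaperone Starvin in flies, was the other member called for genotype. It was the least abundant member, with 99.7, 124 and 139 normalised reads in the control-diet controls. The control-diet svp RNAi-labelled libraries had 151, 256 and 211, all above those controls. The log2 fold change was 0.74 ± 0.22 (limma SE, adjusted p = 0.049), or 1.68-fold. On high sugar the controls had 62.7, 91.0 and 90.0 normalised reads and the svp RNAi-labelled libraries had 141, 109 and 97.0, which did not overlap either. There the log2 fold change was 0.51 ± 0.22 (limma SE, adjusted p = 0.15).

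The control-diet call of Hsp67Bc was near the threshold. It was lost in 11 of 22 alternatives, at an adjusted p of up to 0.20. These were the fit of the 2 groups alone, the fit without the intensity trend, and the fits without any one of the control-diet controls 1, 2 or 3, the control-diet svp RNAi libraries 2 or 3, or replicate 2 or 3 of either high-sugar group. Hsp67Bc was also the member called lower on high sugar, in the svp RNAi-labelled libraries, with a log2 fold change of -0.81 ± 0.22 (limma SE, adjusted p = 0.035), or 1.75-fold. That call was lost in 5 alternatives, at an adjusted p of up to 0.14: without the intensity trend, and without replicate 2 or 3 of either diet's svp RNAi-labelled libraries. In control the diets did not overlap either, and the log2 fold change was -0.57 (limma, adjusted p = 0.22).

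Hsp26, another small heat shock protein of the cluster, varied widely within its control-diet groups and less on high sugar. The control-diet controls had 538, 467 and 1379 normalised reads. The control-diet svp RNAi-labelled libraries had 889, 1030 and 1619. On high sugar the controls had 372, 523 and 412, and the svp RNAi-labelled libraries had 555, 624 and 568. The overlap on the control diet came from control replicate 3, which was far above the other two controls, whereas on high sugar the genotypes did not overlap.

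The genotype difference of Hsp26 was 0.70 ± 0.32 on the control diet (limma SE, log2 scale, adjusted p = 0.21) and 0.43 ± 0.32 on high sugar (limma SE, adjusted p = 0.42). Without control-diet control replicate 3 the first became 1.18 (limma, adjusted p = 0.0039). That library also had the highest nuclear ribosomal RNA share and the fewest reads; the part of either in its Hsp26 value was not tested. The diet contrast of Hsp26 in the svp RNAi-labelled libraries was -0.97 ± 0.32 (limma SE, adjusted p = 0.074), with groups that did not overlap. It was called in the fit of the 2 groups alone (limma, adjusted p = 0.017). It was also called without control-diet control replicate 3 (limma, adjusted p = 0.0093), which is in neither group of this contrast, so only the shared error changed.

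Hsp67Ba ran from 144 to 365 normalised reads over the 12 libraries and was called in no contrast. Its lowest group was the high-sugar group labelled svp RNAi, with 165 ± 22.1 (SD, n = 3). Its control-diet group labelled svp RNAi was the most spread, with 153, 281 and 365 normalised reads. The diet contrast there was -0.61 ± 0.24 (limma SE, adjusted p = 0.13). It became -0.96 (limma, adjusted p = 0.0075) without control-diet svp RNAi replicate 1, the lowest of the 3.

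Hsc70-4, the constitutive HSP70 of the fly cytosol, was close to level in 3 groups and higher in the fourth. It had 12839, 12283 and 12078 normalised reads in the control-diet controls. It had 11649, 11561 and 11663 in the control-diet svp RNAi-labelled libraries. The high-sugar controls had 13610, 13555 and 12232, and the high-sugar svp RNAi-labelled libraries had 15372, 15997 and 16680. The lowest library of that last group was above all 9 others.

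In the svp RNAi-labelled libraries the diet contrast of Hsc70-4 was 0.46 ± 0.14 (limma SE, log2 scale, adjusted p = 0.049), or 1.38-fold. In control it was 0.08 ± 0.14 (limma SE, adjusted p = 0.83). The difference between these was 0.38 ± 0.19 and was not called (limma SE, adjusted p = 0.46). The diet call was lost in 14 of 22 alternatives, at an adjusted p of up to 0.15, among them quantile normalization, the fit of the 2 groups alone and the replicate block. It was kept only in 1 of the 12 fits that left out a library, the one without high-sugar control replicate 1. The SD of Hsc70-4 around its group means was 0.06 on the log2 scale, rank 5659 of 5665 genes from the most to the least spread, and limma sets its error nearer to that of the other genes.

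Hsp68, the heat-inducible HSP70 relative, and DnaJ-1, the J-domain partner of HSP70, were called in no contrast. Hsp68 ran from 265 to 633 normalised reads, with control-diet replicates 3 of both genotypes as the highest libraries, at 633 and 555. On high sugar it had 350, 523 and 476 in control and 272, 388 and 265 in the svp RNAi-labelled libraries, which overlapped, and the log2 fold change was -0.55 ± 0.27 (limma SE, adjusted p = 0.20). DnaJ-1 ran from 318 to 623 normalised reads, and its fold changes lay between -0.21 and -0.04 on the log2 scale in the 4 diet and genotype contrasts. Hsp68 overlaps CG6000 on the other strand in BDGP6; CG6000 had 8.67 to 38.6 normalised reads and fell on high sugar in the svp RNAi-labelled libraries (log2 fold change -1.15, limma, adjusted p = 0.034). No source says that counting used strand, so reads of the 2 genes cannot be told apart where they overlap.

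Hsp83, the fly HSP90, had 5937, 7992 and 6242 normalised reads in the control-diet controls. It had 5732, 5998 and 5495 in the control-diet svp RNAi-labelled libraries. On high sugar the controls had 5932, 7493 and 6768, and the svp RNAi-labelled libraries had 8213, 7408 and 6563. In the svp RNAi-labelled libraries the diets did not overlap, and Hsp83 had a log2 fold change of 0.36 ± 0.15 (limma SE, adjusted p = 0.15). No contrast of Hsp83 was called. It overlaps CG14966 on the other strand, which had 44.2 to 103 normalised reads.

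Counted over the members, the svp RNAi-labelled libraries on the control diet had 2 of 9 called higher and none lower, where 4.14% of all 9367 genes were called higher and 4.38% lower. Their median log2 fold change was 0.04, against 0.00 over all genes. On high sugar 1 of 9 was called higher and none lower, where 7.18% of all genes were called higher and 6.25% lower. The median was 0.14 there, against -0.01. These are counts of 1 or 2 genes, and no result about the members as a group is read from them. The called genotype differences are those of Hsp23 and, at the threshold, Hsp67Bc.

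**Figure D3:**
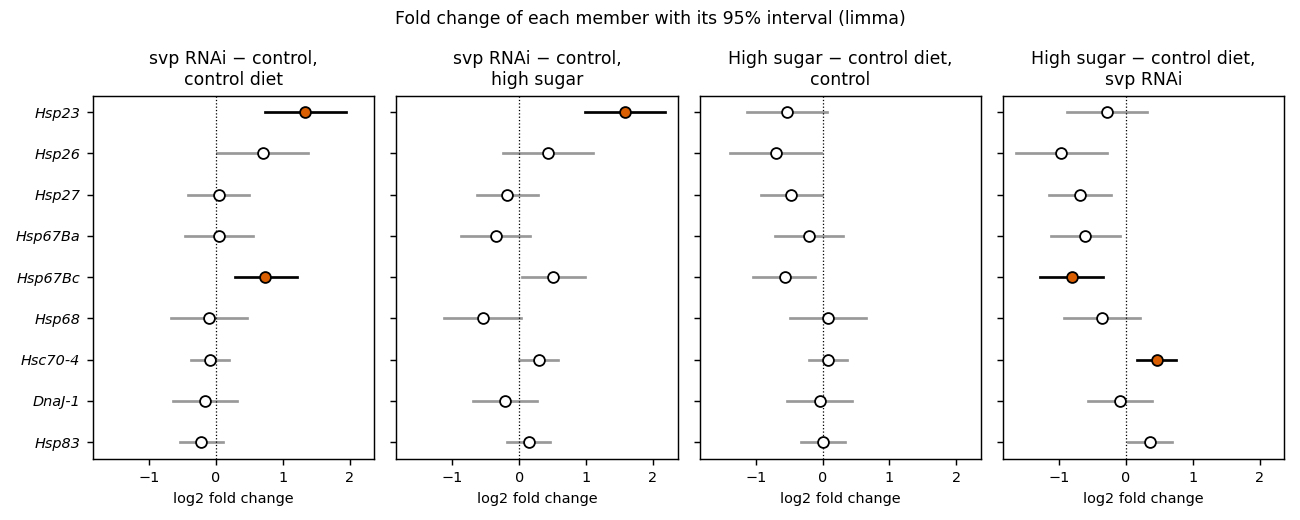
Log2 fold change of each measured member in the genotype contrasts (left pair) and the diet contrasts (right pair), on a log2 x axis, with 95% intervals from limma. Filled points were called at an adjusted p under 0.05 over all genes. Hsp23 is the member that stands at 1.34 and 1.58 in the genotype contrasts, and the diet values of the 5 small heat shock proteins plotted lie below 0 in both genotypes, with 1 of these 10 values called.

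For diet, none of the 9 members was called by limma in control, where 1.85% of all genes were called. At an unadjusted p under 0.05 there were 3 of 9, where 15.5% of all genes were, and limma voom on the recovered reads called none. Their median log2 fold change was -0.21, against 0.00 over all genes. In the svp RNAi-labelled libraries 1 of 9 was called higher (Hsc70-4) and 1 lower (Hsp67Bc), where 4.79% of all genes were called higher and 3.89% lower. Their median was -0.36, against -0.01, and 6 of 9 members had an unadjusted p under 0.05, where 25.6% of all genes did. The 5 small heat shock proteins among the members were below 0 in both genotypes, where 50.6% and 51.4% of all genes were below 0, but only Hsp67Bc in the svp RNAi-labelled libraries was called. Among the small heat shock proteins that are not members, l(2)efl did not share this sign, at 0.27 in control and 0.51 in the svp RNAi-labelled libraries. CG14207 shared it only in the svp RNAi-labelled libraries, at 0.06 in control and -0.16 there. Neither gene was called. On the values as deposited, where the median of all genes lay 0.103 higher on high sugar, the calls of all genes in the svp RNAi-labelled libraries were 1004 higher and 279 lower, in place of 449 and 364. In control they were 260 and 47, in place of 115 and 58. The interaction called none of the 9 members by limma, none at an unadjusted p under 0.05 and none by voom, where 0.235% of all genes were called.

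By the number of members whose groups did not overlap, the count was 1 of 9 for diet in control, where 20.3% of all genes did not overlap. For diet in the svp RNAi-labelled libraries it was 5 of 9, where 30.8% did not. For genotype it was 3 of 9 on the control diet, where 26.1% did not, and 5 of 9 on high sugar, where 31.6% did not. The high-sugar members that lay apart were Hsp23, Hsp26, Hsp67Bc and Hsc70-4, above control, and Hsp67Ba, below it.

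Per kb of exon, with lengths from BDGP6, Hsp23 led in all 4 groups, followed by Hsc70-4 and then Hsp83. In the control-diet controls the levels per kb were 12256 ± 2502 for Hsp23, 4566 ± 145 for Hsc70-4 and 2272 ± 375 for Hsp83 (SD, n = 3). In the control-diet svp RNAi-labelled libraries Hsp23 stood at 30645 ± 2018 per kb and Hsc70-4 at 4280 ± 20.3 (SD, n = 3). In none of the groups did the libraries of these 3 genes overlap. Hsp27 and Hsp26 came next: Hsp27 led in 3 groups and Hsp26 in the control-diet group labelled svp RNAi, and their libraries overlapped in all groups but the high-sugar controls.

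The last 4 members, DnaJ-1, Hsp68, Hsp67Ba and Hsp67Bc, lay at 82.3 to 226 per kb as group means, and neighbours in the order overlapped, apart from Hsp68, Hsp67Ba and Hsp67Bc in the high-sugar controls. Hsp67Bc was last in both control groups, at 122 ± 20.2 and 82.3 ± 16.3 per kb (SD, n = 3). In the control-diet svp RNAi-labelled libraries it stood first of these 4, at 209 ± 53.4 (SD, n = 3). The exon lengths come from a later build than that of the files, so levels per kb are approximate.

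The members together took 0.479% to 0.722% of all values in the 6 control libraries and 0.804% to 1.09% in the 6 labelled svp RNAi. This share also depends on the other genes, and the summed fat body markers were lower in the svp RNAi-labelled libraries. As sums, the members went from 33681 ± 2898 to 48626 ± 1548 normalised reads on the control diet (SD, n = 3). On high sugar they went from 30731 ± 5684 to 48546 ± 5036 (SD, n = 3). Hsp23 alone made up 18.8% to 36.0% of the members' sum in the control libraries and 40.9% to 57.3% in those labelled svp RNAi. Without Hsp23 the members summed to 22847 ± 967 and 21536 ± 709 normalised reads in the control-diet controls and the control-diet svp RNAi-labelled libraries (SD, n = 3), and the 2 groups overlapped. The high-sugar sums without Hsp23 were 22754 ± 1750 and 26032 ± 385 (SD, n = 3). The high-sugar groups did not overlap, and most of that sum is Hsc70-4.

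Among replicates the members fell into 2 kinds. Around their group means, 7 of them had an SD of 0.30 to 0.50 on the log2 scale, where the median of 5665 genes with a mean of at least 50 was 0.19. Pooled over the 4 groups, Hsp26 was the most spread member, at 0.50, above 95.2% of those genes, followed by Hsp68 at 0.41 and Hsp23 at 0.40. The spread of Hsp26 came from the control diet, with a CV of 63.9% in control and 32.9% in the svp RNAi-labelled libraries. On high sugar its CVs of 18.0% and 6.28% were below those of Hsp23, 49.6% and 21.8%. Hsp83, at 0.17, was less spread than the median gene, and Hsc70-4 less than nearly all.

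**Figure D4:**
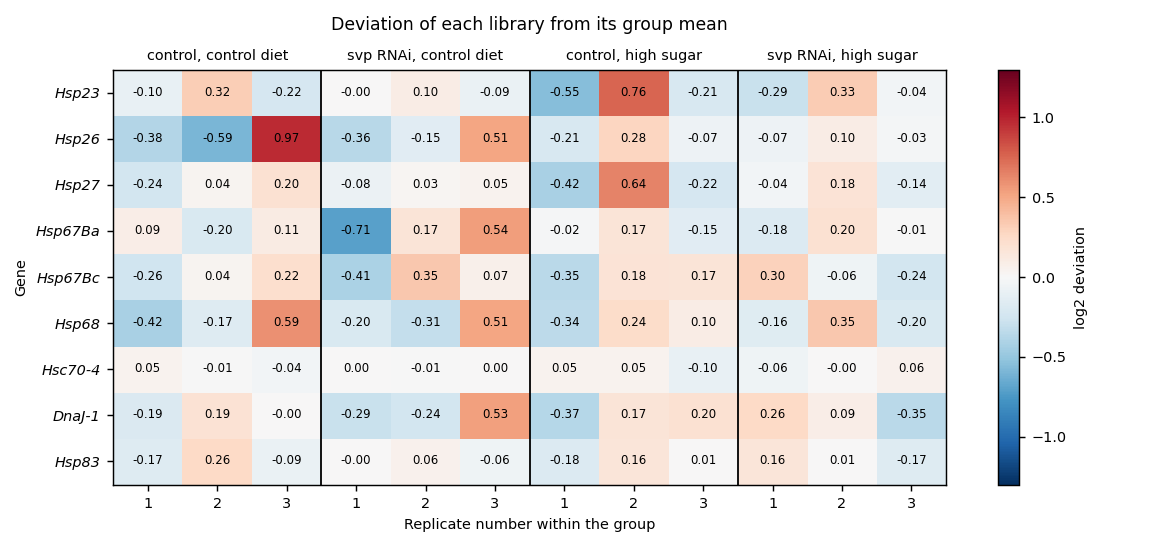
Deviation of each library from its group mean on the log2 scale, for the 9 measured members (rows) and 12 libraries (columns). Red is above and blue below the group mean. Control-diet control replicate 3 is at 0.97 for Hsp26 and 0.59 for Hsp68, and high-sugar control replicate 2 is above its group mean for all 9 members.

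Several members deviated in the same libraries. High-sugar control replicate 2 was above its group mean for all 9 members, by 0.76 for Hsp23 and 0.64 for Hsp27, and high-sugar control replicate 1 was above it for 1 of 9. Control-diet svp RNAi replicate 3 was above its group mean for 7 of 9, with Hsp26, Hsp67Ba, Hsp68 and DnaJ-1 each 0.51 to 0.54 higher. High-sugar control replicate 2 had 0.856% nuclear ribosomal RNA and 5563660 reads, both inside the range of the other libraries.

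Over the 12 libraries, each member's pattern was compared with those of the 9366 other genes by Pearson's r on the log2 scale. Such a highest r is chosen among all these genes, and the points share group structure, so it is a description only. Hsp23 was most like CG1773, at r = 0.977. Hsc70-4 was most like CG8801, at 0.948, and Hsp26 was most like SmD1, a core protein of the spliceosome, at 0.933. Hsp67Bc was most like Ski6, a subunit of the RNA exosome, at 0.940, and the highest r of the other members lay between 0.848 for Hsp83 with CG2116 and 0.911 for Hsp67Ba with CG9134. Hsp27 was most like msd1, at 0.890, Hsp68 most like CG12531, at 0.895, and DnaJ-1 most like CG31272, at 0.892. No member was among the 20 genes most like another member: the closest pair was Hsp26 and Hsp67Bc, at 0.806.

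The other chaperones of the cell were represented by 40 measured genes in 7 lists. In the svp RNAi-labelled libraries on the control diet 4 of 40 were called higher and none lower, where 4.14% of all genes were called higher. On high sugar 2 of 40 were called higher and none lower, where 7.18% of all genes were called higher. Hsp70Bb, a copy of the main heat-inducible HSP70, went from 662 ± 93.8 to 1470 ± 210 normalised reads (SD, n = 3), a log2 fold change of 1.15 ± 0.16 (limma SE, adjusted p = 0.00022). On high sugar Hsp70Bb rose by 0.90 ± 0.16 on the log2 scale (limma SE, adjusted p = 0.0013). Both calls of Hsp70Bb held in all 22 alternatives. It has near-identical copies, so reads could be split among them and its level is uncertain. Whether all its reads come from the gene itself was not tested. Of the 4 measured genes in the list of other heat-inducible and HSF genes, Hsp70Bb was the only 1 called for genotype, on either diet.

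Hsc70-3, the HSP70 of the endoplasmic reticulum known in mammals as BiP, went from 4250 ± 268 to 6039 ± 211 normalised reads on the control diet (SD, n = 3; log2 fold change 0.51 ± 0.14 limma SE, adjusted p = 0.041). On high sugar it went from 4130 ± 412 to 6805 ± 1136 (SD, n = 3; 0.71 ± 0.14 limma SE, adjusted p = 0.0039). The high-sugar call held in all 22 alternatives, and the control-diet call was lost in 10, at an adjusted p of up to 0.13. Also called higher on the control diet were PpD3, a protein phosphatase that in mammals binds HSP90, at 0.63 (limma, adjusted p = 0.023), and Roe1, the GrpE-like exchange factor of the mitochondrial HSP70, at 0.79 (limma, adjusted p = 0.011). PpD3 was lost without control-diet control replicate 2 or 3, without control-diet svp RNAi replicate 1 or 2 and in the fit of the 2 groups alone, and Roe1 without control-diet control replicate 1. Neither was called on high sugar, at 0.01 and -0.27, and their interactions of -0.62 and -1.06 were not called (limma, adjusted p = 0.31 and 0.14).

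**Figure D5:**
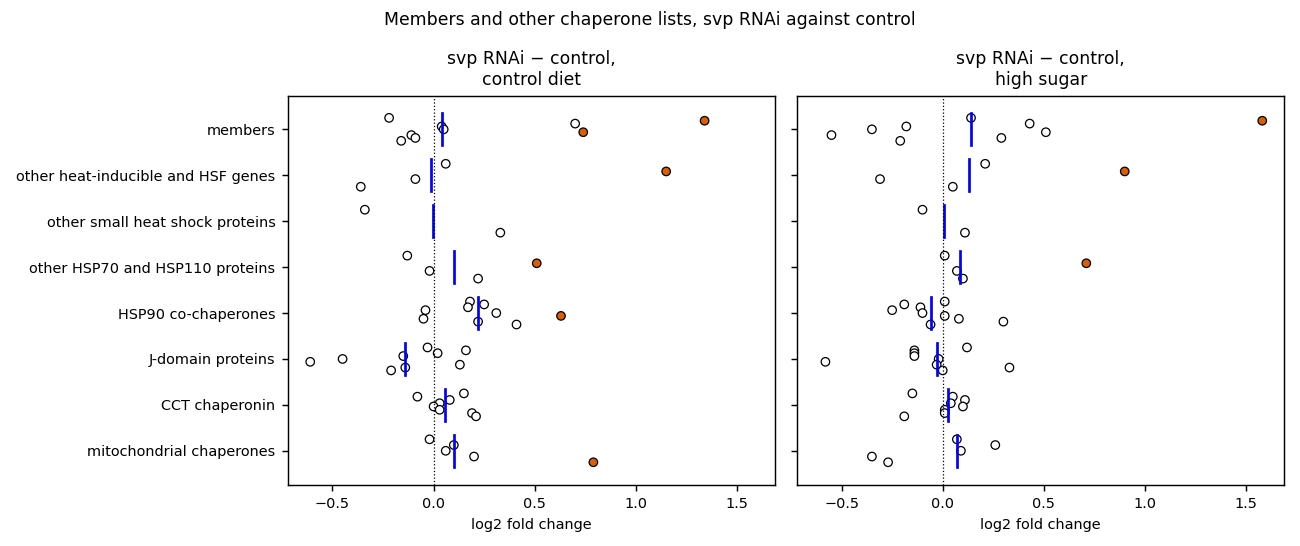
Log2 fold change of each measured gene of the members and of the 7 other chaperone lists (rows) in the genotype contrast on each diet (x axis, log2 scale), with list medians as blue bars and called genes filled. Hsp23 and Hsp70Bb are the called genes farthest to the right on both diets, and the 8 CCT chaperonin genes hold none that was called.

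The diet contrast in control called none of the 40 other chaperones by limma or voom, where limma called 1.85% of all genes. At an unadjusted p under 0.05 in limma there were 4 of 40, where 15.5% of all genes were. In the svp RNAi-labelled libraries 1 of 40 was called higher and 1 lower, where 4.79% and 3.89% of all genes were. At an unadjusted p under 0.05 there were 8 of 40 in these libraries, where 25.6% of all genes were. There the J-domain gene CG7872 was higher, at 0.55 (limma, adjusted p = 0.029), and the non-coding heat shock RNA Hsromega was lower, at -0.85 (limma, adjusted p = 0.023). CG7872 was lost in 6 alternatives and Hsromega in 4. The interaction called none of the 40 by limma or voom, where limma called 0.235% of all genes. At an unadjusted p under 0.05 in limma there were 3 of 40, where 11.9% of all genes were. All 8 subunits of the CCT chaperonin, which folds actin and tubulin, were measured, and none was called in any contrast, with none at an unadjusted p under 0.05; their fold changes lay between -0.40 and 0.21 on the log2 scale. The 2 other small heat shock proteins measured and the 9 HSP90 co-chaperones held no call apart from PpD3. Hsf, the heat shock factor gene, named here after its values were seen, had fold changes of 0.06 to 0.32 on the log2 scale in the diet and genotype contrasts and was not called.

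As ecdysone is a known inducer of the small heat shock genes, 18 genes of the ecdysone response were followed, among them the receptor genes EcR and usp. In the svp RNAi-labelled libraries on the control diet 1 was called higher (Eip71CD) and 1 lower (ImpL2). Of all genes, 4.14% were called higher there and 4.38% lower. At an unadjusted p under 0.05 in limma there were 6 of 18, where 22.2% of all genes were. The median log2 fold change was 0.26, against 0.00 over all genes. On high sugar none was called, where 7.18% of all genes were called higher and 6.25% lower. The median there was 0.03, against -0.01, and 4 of 18 had an unadjusted p under 0.05, where 27.4% of all genes did. For diet in the svp RNAi-labelled libraries 2 were called lower (Eip71CD and ImpE2), where 3.89% of all genes were. There 7 of 18 had an unadjusted p under 0.05, where 25.6% of all genes did, and the median was -0.24, against -0.01. For diet in control none was called, where 1.85% of all genes were. The median in control was -0.13, and 1 of 18 had an unadjusted p under 0.05, where 15.5% of all genes did. The summed level of the 18 genes ran from 10873 to 13387 normalised reads in the control-diet controls. It ran from 11450 to 14089 in the control-diet svp RNAi-labelled libraries, and the 2 ranges overlap. On high sugar it ran from 10049 to 12112 in control and from 10511 to 12887 in the svp RNAi-labelled libraries, which overlap too.

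Markers of other cells moved with genotype beside Hsp23. Of all genes, 4.14% were called higher and 4.38% lower in the svp RNAi-labelled libraries on the control diet, and 7.18% and 6.25% on high sugar. Of 14 muscle markers, 13 were called lower on the control diet and 8 on high sugar. All 14 muscle markers had log2 fold changes below 0 on both diets. Their summed level was 29909 to 41995 normalised reads in the control-diet controls and 12878 to 19281 in the svp RNAi-labelled libraries, with Mlc2 the highest. On high sugar it was 24104 to 35380 and 14800 to 17999. The summed level of 9 neuron and glia markers was 2681 to 3186 and 4407 to 5522 on the control diet, and 2818 to 3376 and 3952 to 5186 on high sugar, led by Syt1. Of these 9, 1 was called higher on each diet, 1 lower on the control diet and 5 lower on high sugar, and their median log2 fold changes were -0.58 and -0.74, opposite in sign to the sums. The 8 hemocyte markers summed to 5669 to 6689 and 4809 to 5094 on the control diet, and to 4605 to 5472 and 3431 to 4362 on high sugar. Of these 8, 1 was called higher on each diet, 1 lower on the control diet and 2 lower on high sugar. Their median log2 fold changes were -0.08 and -0.17. The sums of midgut, salivary gland, trachea and epidermis, and imaginal disc markers overlapped between the genotypes on both diets. Single genes of these lists were called all the same. The salivary gland gene Sgs1 was called lower on both diets and Sgs3 on the control diet. Lcp3 of the trachea and epidermis list was called lower on both diets and Lcp4 on high sugar. Of 12 midgut markers, 1 was called higher on each diet and 1 lower on high sugar. No imaginal disc marker was called. The 8 fat body markers summed to 1822034 to 1977828 and to 1086116 to 1492206 on the control diet. On high sugar they summed to 1571156 to 1680688 and to 1195743 to 1403004. The genotypes did not overlap on either diet, and 4 of the 8 were called lower on each diet and none higher. The part of any of these markers in the values of Hsp23 was not tested. In bulk RNA, fewer cells of a type and less RNA per cell cannot be told apart.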

How the data were processed

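RNA-seq libraries were made from dissected fat bodies after RiboZero removal of ribosomal RNA, per the labels' protocols. The tools named in the submitters' processing notes are edgeR, Cufflinks 1.1.0, Bowtie 0.12.7 and TopHat 1.3.2, and the build is dm3. How reads were counted, with which annotation and strand setting, is not given in the sources used here. Values deposited by the authors are a normalized signal in read-like units, not divided by gene length. The 6 libraries of each diet appear to have been adjusted separately to a common size, so all contrasts here used 1 joint rescaling by median of ratios. Reads were recovered by inverting that adjustment and served for depth and for limma voom. At least 99.9% of the low values of each library came within 0.1 of a whole number, against 13.4% to 43.4% as deposited. The settings of the inversion were chosen on part of these low values to bring them near whole numbers. Among low values of genes with higher means, not used in that choice, the share was at least 99.73% in each library. Of 9527 rows, 156 with names not unique without case and 4 with bare numbers were left out. The 9367 genes kept had reads in every library, so a gene without reads in 1 library is not among them.

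limma 3.58.1 in R 4.3.3 was fitted to log2(value + 1) with an intensity trend and 4 group means over the 12 libraries; fold changes on this scale understate those of low genes. The 5 contrasts were diet within each genotype (high sugar minus control diet), genotype within each diet (svp RNAi-labelled minus control) and the interaction. The fits were tested on simulated data. Intervals are 95% intervals of limma. The 22 alternatives changed the scale, pseudocount, filter, groups fitted, trend, tool or replicate block, or left out each of the 12 libraries.

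The members and gene lists were chosen with earlier results of these data known. All 10 members were to be named, with the called genes of the other chaperone lists, svp and the gene most like each member. Symbols were matched to BDGP6 for identifiers, arms, overlaps and exon lengths. The replicate numbers do not pair the samples.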

Additional observations from a re-analysis of the deposited data

How the results depend on the processing

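Hsp23 kept both genotype calls in all 22 alternatives, at 1.23 to 1.5 and 1.31 to 1.96 on the log2 scale; other member calls that were lost are given above. Genes called for diet in control numbered 307 on the deposited values and 104 without the intensity trend, against 173, and 103 to 240 with a library left out. For diet in the svp RNAi-labelled libraries they numbered 1283 and 491, against 813, and 279 to 889 with a library left out; for genotype on high sugar 783 to 1348, against 1258; and for the interaction 10 without the trend, and 6 to 29 with a library left out, against 22. Members called numbered 1 under quantile normalization and without the trend for diet in the svp RNAi-labelled libraries, and 1 in the fit of the 2 groups alone and without the trend for genotype on the control diet. With a library left out they numbered 0 to 1 for diet in control, 0 to 3 for diet in the svp RNAi-labelled libraries and 1 to 2 for genotype on the control diet. The cause was not tested.

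Reversals of sign touched no called value. On the deposited values DnaJ-1 was 0.08 for diet in control and 0.02 in the svp RNAi-labelled libraries, and under quantile normalization Hsp83 was -0.05 for genotype on high sugar. With a library left out, the diet contrast in control ran from -0.08 to 0.14 for Hsp83, -0.13 to 0.37 for Hsp68 and -0.14 to 0.14 for DnaJ-1, and that of DnaJ-1 in the svp RNAi-labelled libraries from -0.23 to 0.17. Genotype on the control diet ran from -0.08 to 0.14 for Hsp27, -0.23 to 0.40 for Hsp67Ba and -0.36 to 0.19 for Hsp68, and on high sugar from -0.39 to 0.14 for Hsp27. The interaction ran from -0.03 to 0.62 for Hsp23, -0.75 to 0.03 for Hsp26, -0.43 to 0.10 for Hsp27 and -0.23 to 0.21 for DnaJ-1.

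Same-numbered libraries correlated at -0.195 to 0.164 between groups, and a library was most like its own number in 14 of 36 comparisons, so the numbers were not taken as pairs. With a replicate block 186, 767, 802, 1199 and 25 genes were called in the 5 contrasts. Hsp27 was then called for diet in the svp RNAi-labelled libraries (adjusted p = 0.041, limma), Hsc70-4 was not (adjusted p = 0.072), and Hsc70-3 was not for genotype on the control diet (adjusted p = 0.061). Hsp67Bc was the member with the fewest recovered reads, from 61 to 295 in a library, and the part of depth in its spread was not tested.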
